A study of Mus musculus with 22 samples.

Results

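Kif23, Racgap1, Ect2, Anln, Cit, Cep55, Nusap1, Gas2l3, Birc5 and Aspm encode proteins that work at the end of cell division, at the central spindle, the contractile ring and the midbody, or on the microtubules that lead up to them. The genes were chosen by symbol, with earlier results of these data known, so that shares of all genes given beside them are description only. They are 10 of the 48709 genes listed in both count tables. All 10 passed the filter on low counts in both experiments, with between 284 and 1659 counts per library in experiment 1 and between 95 and 586 in experiment 2.

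The study asked how LIN9, a subunit of the MuvB complex, and SAV1, a scaffold protein of the Hippo kinase cascade, act on gene expression in the developing mouse heart, and it sequenced polyA RNA of heart ventricles at E13.5. Experiment 1 holds 3 LIN9 wt and 3 LIN9 KO libraries, and experiment 2 holds 3 libraries of each of 4 genotypes, which are LIN9 wt with Sav1 wt (control), LIN9 KO with Sav1 wt (LIN9 KO), LIN9 wt with Sav1 KO (Sav1 KO) and LIN9 KO with Sav1 KO (double KO). The knockouts came from floxed Lin9 and Sav1 alleles, and per the paper the libraries called LIN9 wt carried Lin9 fl/+ while the labels call them wild-type. All 6 groups carried Nkx2.5-Cre, which is active in cardiac progenitors, so that the other cells of the ventricle could keep both floxed genes intact. Neither the labels nor the paper state whether a library is 1 embryo or a pool. For LIN9 KO and LIN9 wt, a legend of the paper speaks of 2 biological replicates, each in triplicate. Total counts ran from 9485599 to 9615274 per library in experiment 1 and from 2770741 to 2999877 in experiment 2. Levels are given in CPM, counts scaled to library size, and 1 count stood for 0.103 to 0.108 CPM in the former and for 0.328 to 0.373 CPM in the latter.

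Cytokinesis begins when the spindle midzone, built by the centralspindlin complex of KIF23 and RACGAP1, recruits the exchange factor ECT2 and so turns on RhoA at the cell equator. Anillin links the resulting actomyosin ring to the membrane and the septins, citron kinase organises the midbody that the closing ring leaves behind, and CEP55 brings in the machinery that severs it. Fetal cardiomyocytes still complete this sequence, whereas cardiomyocytes after birth often stop short of it and become binucleate, and many of the genes involved are transcribed in G2 phase through promoters bound by MuvB together with B-MYB.

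The promoter sequences of the members are shown because MuvB is known to contact DNA through LIN54 at the letters TTTGAA or TTCGAA, called the cell cycle genes homology region (CHR), while the factor NF-Y binds CCAAT. The RefSeq promoter table for GRCm38.p6 held entries for all 10 members, 12 in total because Ect2 and Cep55 have an alternative start. Both motifs were searched on both strands from 250 bases before to 50 after each start, and TTCGAA reads the same on either strand. The windows below run from 80 bases before to 30 after the start, in the direction of transcription, with the letters found in capitals (ATTGG is CCAAT read on the other strand, and TTCAAA is TTTGAA).
Kif23, chr9:61946770-61946879, minus strand: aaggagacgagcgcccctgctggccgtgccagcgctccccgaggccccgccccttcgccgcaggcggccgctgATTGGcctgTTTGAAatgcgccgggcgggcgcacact
Racgap1, chr15:99651627-99651736, minus strand: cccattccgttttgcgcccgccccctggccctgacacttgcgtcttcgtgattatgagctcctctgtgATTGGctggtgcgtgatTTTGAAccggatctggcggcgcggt
Ect2, chr3:27153825-27153934, minus strand: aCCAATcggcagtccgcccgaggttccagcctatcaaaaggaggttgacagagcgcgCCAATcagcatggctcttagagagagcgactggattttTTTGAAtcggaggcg
Gas2l3, chr10:89443938-89444047, minus strand: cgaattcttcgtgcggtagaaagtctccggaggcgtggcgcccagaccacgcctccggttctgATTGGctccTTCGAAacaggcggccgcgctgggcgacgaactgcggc
Aspm, chr1:139454693-139454802, plus strand: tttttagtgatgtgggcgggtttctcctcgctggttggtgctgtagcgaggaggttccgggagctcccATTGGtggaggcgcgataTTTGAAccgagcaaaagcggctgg
Nusap1, chr2:119618218-119618327, plus strand: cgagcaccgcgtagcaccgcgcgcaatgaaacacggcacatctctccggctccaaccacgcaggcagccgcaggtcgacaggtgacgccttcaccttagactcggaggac
Cit, chr5:115845576-115845685, plus strand: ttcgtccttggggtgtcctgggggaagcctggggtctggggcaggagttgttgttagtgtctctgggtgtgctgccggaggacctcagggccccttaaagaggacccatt
Kif23, Racgap1, Ect2, Gas2l3 and Aspm are shown because each holds both motifs. Nusap1 and Cit are shown as members with neither motif whose RNA changed in the LIN9 KO libraries. Birc5 also holds neither, its RNA did not pass the test given below, and it is not shown. The windows were thus picked partly by RNA change and do not compare motifs with response. A CHR was found in 7 of the 10 members, against 19.2% of the 32851 promoters of the table. For TTTGAA alone the share of all promoters was 17.9% and for TTCGAA, which only Gas2l3 holds among the members, it was 1.56%. CCAAT was found in 5 of the 10 members and in 37.4% of all promoters, and the 5 members with CCAAT all held a CHR too, a pair present in 7.52% of promoters. A match describes the letters and is not evidence that a factor sits there, and the absence of a match says only that these letters are not in the window.

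In Kif23 and in Gas2l3, 4 bases separate CCAAT from the CHR. The gap is 12 bases in Racgap1, 13 in Aspm and 33 in Ect2. In all of these 5 promoters the CCAAT nearest to the start lies upstream of the CHR nearest to the start, as the map of motifs shows, and Ect2 and Aspm hold further CCAAT copies farther upstream, Ect2 also a further CHR. Anln and Cep55 hold a CHR without CCAAT, and Nusap1, Cit and Birc5 hold neither. For Cit the RefSeq start lies 378 bases downstream of the start of the GENCODE gene, so its window may not cover every start that the gene uses.

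**Figure D1:**
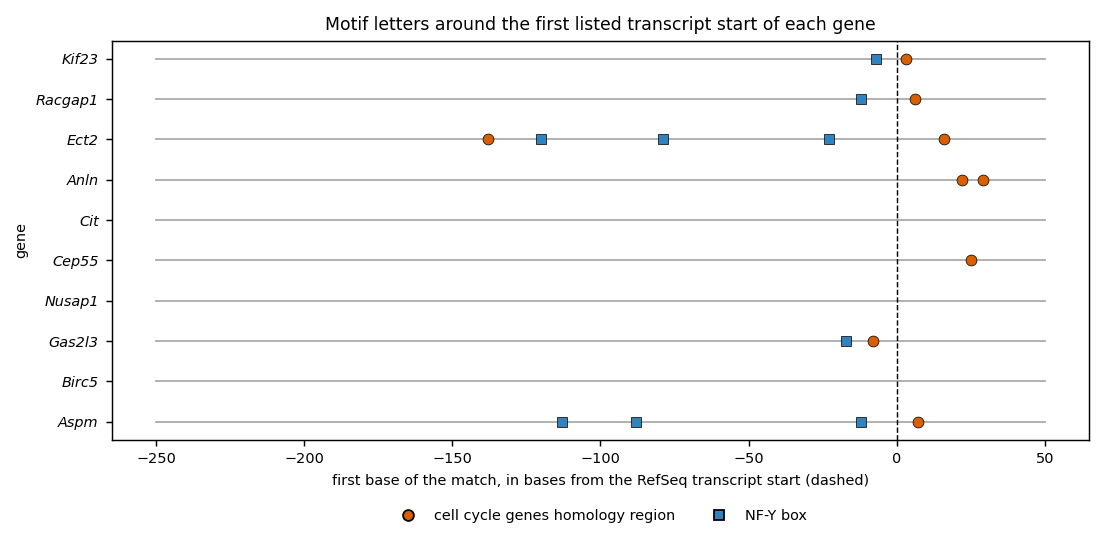
Positions of TTTGAA or TTCGAA and of CCAAT in the promoter of each member, in bases from its first listed RefSeq start on the horizontal axis, from 250 before to 50 after, with circles for the CHR and squares for CCAAT. In the 5 members with both motifs, the pair nearest to the start is 4 to 33 bases apart, with CCAAT upstream.

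The targeted genes were read first. Lin9 reached 29.8, 21.4 and 25.6 CPM in the LIN9 wt libraries of experiment 1 and 21.4, 21.3 and 19.2 CPM in the LIN9 KO libraries. In experiment 2 it reached 29.3, 28.1 and 23.2 CPM in the control, 13.1, 15.4 and 17.9 CPM in LIN9 KO, 19.2, 31.4 and 25.6 CPM in Sav1 KO and 23.5, 26.1 and 18.5 CPM in the double KO. Lin9 was thus lowest in the LIN9 KO libraries of experiment 2, all of which lay below every other library of that experiment, while the double KO overlapped the control and the Sav1 KO. The Lin9 fall in LIN9 KO of experiment 2 passed edgeR's quasi-likelihood test (log2 fold change -0.80, SE 0.19, Benjamini-Hochberg adjusted p = 0.00270). In experiment 1 (log2 fold change -0.31, edgeR adjusted p = 0.13) and in the double KO against the Sav1 KO (log2 fold change -0.16, edgeR adjusted p = 0.586) it did not. These counts cover the whole gene, including the parts that the knockout alleles retain, so that they check the labels only in part.

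Sav1 reached 54.5, 56.2 and 61.9 CPM in the control, 51.9, 49.9 and 47.3 CPM in LIN9 KO, 43.1, 36.1 and 43.0 CPM in Sav1 KO and 44.0, 40.5 and 42.3 CPM in the double KO. All 6 libraries with Sav1 KO therefore lay below all 6 with Sav1 wt. Against the control, the Sav1 level of the double KO fell (log2 fold change -0.44, edgeR adjusted p = 0.00873), a call that ended without control replicate 3 (log2 fold change -0.39, adjusted p = 0.0531). That comparison also differs in LIN9. Between groups of equal LIN9 genotype, the log2 fold change of Sav1 was -0.50 in Sav1 KO against the control (edgeR adjusted p = 0.318) and -0.23 in the double KO against LIN9 KO (edgeR adjusted p = 0.464), neither past the threshold, and Lin9 was at 0.56 in the latter (edgeR adjusted p = 0.238). Of Sav1, 28.1% of the exonic length lies under other genes.

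The tissue label was checked against markers of the ventricle's cell types, whose levels moved with LIN9 in these whole-tissue libraries. Summed over the list, cardiomyocyte markers reached 17648 to 18275 CPM in LIN9 wt and 7728 to 11756 CPM in LIN9 KO of experiment 1. In experiment 2 the sum was 20074 to 21570 CPM in the control, 10243 to 11207 CPM in LIN9 KO, 22136 to 23061 CPM in Sav1 KO and 9920 to 12972 CPM in the double KO. Cardiomyocyte markers thus formed 2 separate ranges, high with LIN9 and low without it. In each of the 4 comparisons of LIN9 KO or double KO libraries with libraries that kept LIN9, 5 of the 7 tested cardiomyocyte markers fell. Myh7, Tnnt2 or Myl2 was the most abundant of these markers, and Actc1 was at 0 counts in every library. All of the exonic length of Actc1 (100%) lies under other gene bodies, as does that of each other listed gene given below with 0 counts (Alas2, Prc1, Myl12a, Myl12b, Chmp1a, Chmp1b, Cdt1 and Gins2), so that these zeros are not read as absent RNA. Tcf21, a fibroblast marker covered in full as well, was counted. In bulk tissue, fewer cells of a type and less RNA per cell cannot be told apart.

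Erythroid markers moved the other way. Their sum was 4299 to 6291 CPM in LIN9 wt and 24046 to 62772 CPM in LIN9 KO of experiment 1, with Alas2 at 0 counts in every library. In experiment 2 it was 2247 to 2875 CPM in the control, 14489 to 26615 CPM in LIN9 KO, 1679 to 2265 CPM in Sav1 KO and 6948 to 20277 CPM in the double KO. All 8 tested erythroid markers rose in each of the LIN9 KO comparisons, and 7 of them rose in the double KO against the control. The most abundant erythroid genes were the globins Hbb-y and Hba-a1.

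Macrophage, fibroblast and cushion, epicardial and atrial markers were higher in sum without LIN9 too. Macrophage markers, led by Csf1r, summed to 40.5 to 43.5 CPM in LIN9 wt and 82.9 to 99.9 CPM in LIN9 KO of experiment 1, and to 46.6 to 52.2 CPM in the control, 84.3 to 111 CPM in LIN9 KO, 44.4 to 54.2 CPM in Sav1 KO and 93.1 to 122 CPM in the double KO. Fibroblast and cushion markers, led by Col3a1, summed to 1646 to 1929 CPM and 3589 to 3955 CPM in experiment 1, and to 2273 to 2471, 3980 to 5038, 2227 to 2662 and 4008 to 5197 CPM in the genotypes of experiment 2 in the same order. For both lists the libraries with and without LIN9 did not overlap, and over experiment 1, LIN9 KO with Sav1 wt, LIN9 KO with Sav1 KO and the double KO against the control, 5, 4, 4 and 4 of 5 macrophage markers and 5, 4, 5 and 5 of 5 fibroblast and cushion markers rose. Epicardial markers, Upk3b, Tbx18 or Wt1 the most abundant, summed to 242 to 261 CPM and 405 to 470 CPM in experiment 1, and to 217 to 228, 370 to 468, 192 to 224 and 353 to 369 CPM in experiment 2. Atrial markers, chiefly Nppa and Myl7, summed to 840 to 1465 CPM and 1865 to 2681 CPM in experiment 1, and to 1008 to 1274, 2188 to 2504, 898 to 1110 and 1734 to 2196 CPM in experiment 2. These lists also separated libraries with and without LIN9, with 4, 4, 4 and 3 of 5 epicardial and 1, 2, 2 and 1 of 4 atrial markers rising in the same order, whereas endothelial markers overlapped in experiment 1 and between the double KO and the control. Endothelial markers summed to 788 to 1020 CPM and 959 to 1256 CPM in experiment 1, and to 881 to 952, 975 to 1065, 792 to 849 and 909 to 1051 CPM in experiment 2, with 2, 2, 4 and 2 of 6 rising and 1 falling in each comparison of experiment 2. The part of these shifts in any result given below was not tested.

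Some libraries stood apart from the rest of their group, a check made after the data were seen. In experiment 2, replicate 1 of the control and of LIN9 KO had low values for genes with low GC content. The median deviation of the fifth of genes lowest in GC was -0.16 and -0.19 on the log2 scale in these libraries, and 0.08 and 0.13 in the fifth highest in GC. In replicate 1 of Sav1 KO the same medians were -0.06 and 0.03, and in replicate 1 of the double KO 0.07 and -0.06. In experiment 1 the LIN9 KO replicates 2 and 3 differed by transcript length, with a median deviation of 0.11 and -0.13 in the fifth with the longest transcripts and -0.11 and 0.12 in the fifth with the shortest. In experiment 2 the longest and shortest gave -0.066 and 0.080 in replicate 1 of the control, -0.054 and 0.091 in replicate 1 of LIN9 KO and -0.089 and 0.099 in replicate 1 of the double KO. Among the members, Ect2 has the lowest GC content of its longest transcript, 40.2%, and Cit the highest, 54.2%. Aspm and Cit have the longest transcripts, with 9867 and 9514 bases.

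Relative to gene length, Birc5 was the most abundant member in 5 of the 6 groups and Cit the least abundant in all 6. In the control of experiment 2, Birc5 reached 26.6 ± 1.7 CPM per kilobase of exons (SD, n = 3), followed by Nusap1 with 23.1 ± 1.9, Ect2 with 23.1 ± 2.9 and Racgap1 with 21.9 ± 1.1. Cep55 with 18.5 ± 2.5, Anln with 17.6 ± 1.7 and Kif23 with 15.3 ± 1.3 CPM per kilobase came next, then Gas2l3 with 9.12 ± 0.33, Aspm with 8.82 ± 3.4 and Cit with 2.35 ± 0.14. Neighbours in this order differed by more than the larger of their SDs only at the steps from Birc5 to Nusap1, from Racgap1 to Cep55, from Anln to Kif23, from Kif23 to Gas2l3 and from Aspm to Cit. The order was the same in LIN9 wt of experiment 1, from Birc5 with 29.1 ± 0.95 to Cit with 2.07 ± 0.25 CPM per kilobase. In the groups without LIN9, Racgap1 moved from the fourth to the sixth place, with 14.3 ± 1.2 CPM per kilobase in LIN9 KO of experiment 1 and 12.9 ± 1.4 in the double KO. Nusap1 moved from the second place in the control to the fifth in the double KO, with 14.9 ± 2.3 CPM per kilobase, and Kif23 from the seventh to the eighth in LIN9 KO of experiment 2, with 9.00 ± 0.98. In the Sav1 KO libraries Ect2 came first with 28.2 ± 2.5 CPM per kilobase, within its SD of Birc5 with 27.7 ± 0.83.

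**Figure D2:**
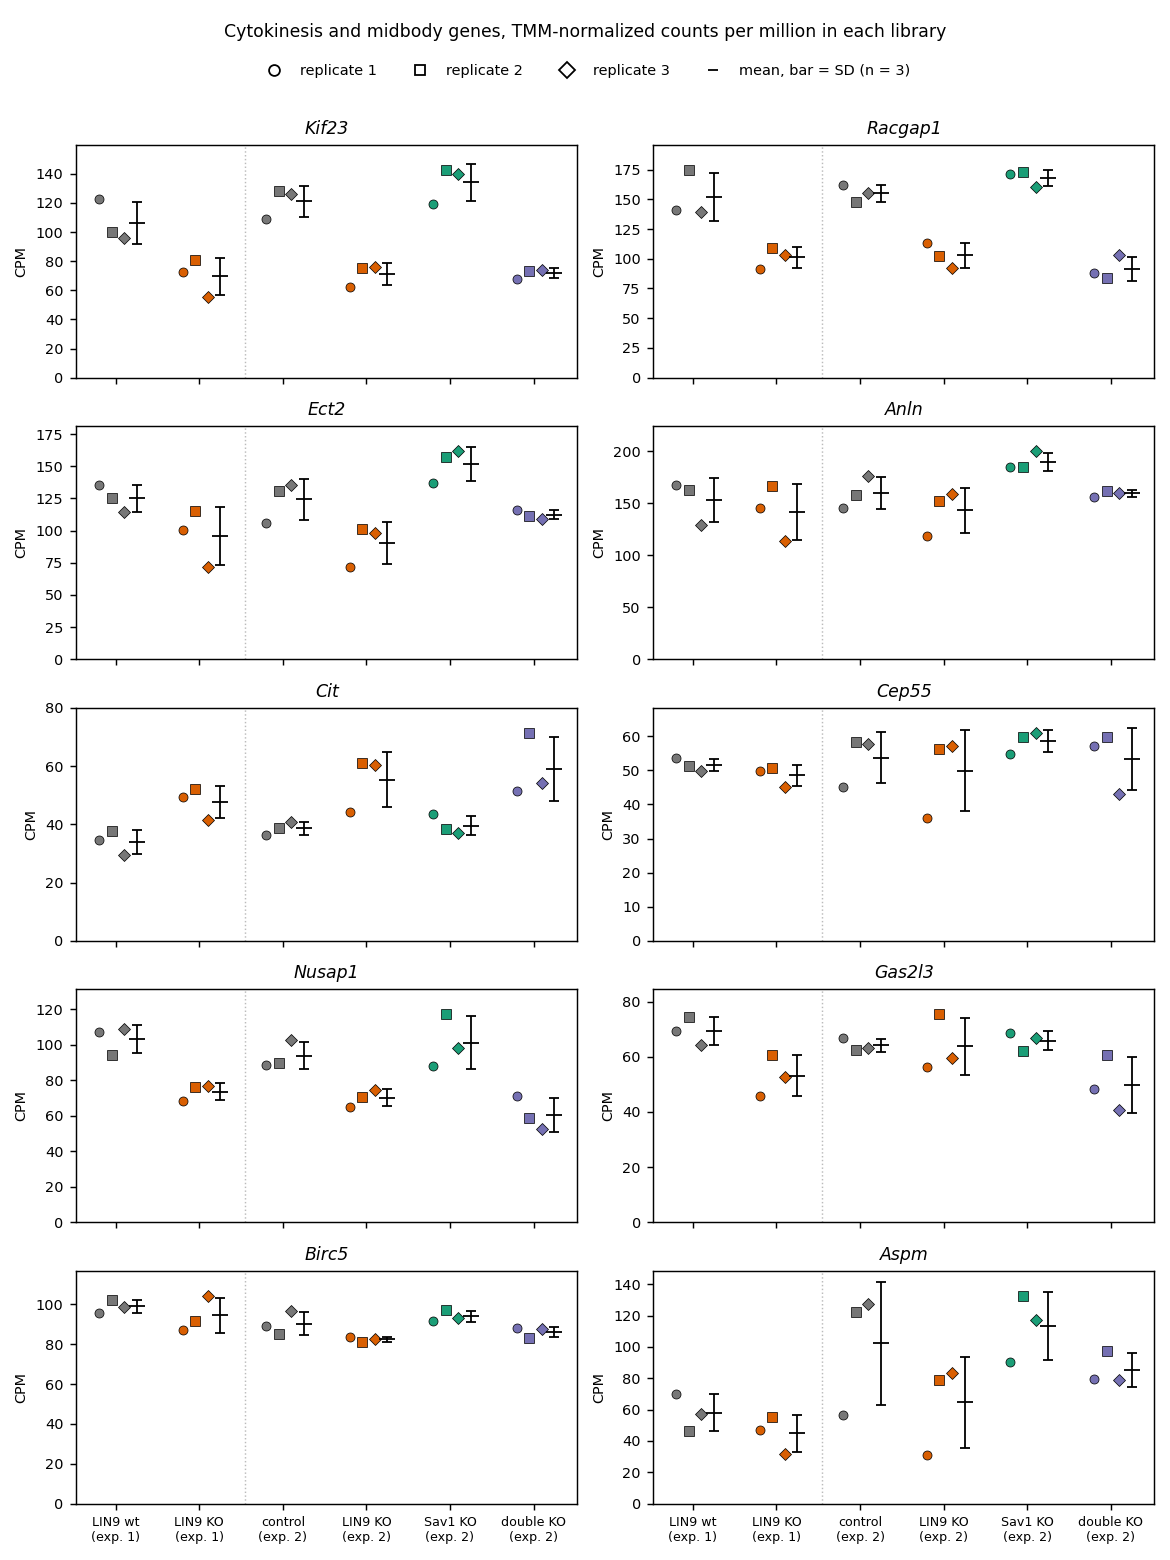
Level of each member in CPM (vertical axes, each starting at 0) in every library of the 6 groups, points for libraries and bars for the group mean with its SD. Kif23 and Racgap1 lie lower in every LIN9 KO and double KO library than in any library of their experiment that kept LIN9, and Cit lies higher.

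LIN9 KO was compared with LIN9 wt in experiment 1, and with either Sav1 background in experiment 2, to ask what loss of LIN9 does to these genes. The centralspindlin genes Kif23 and Racgap1 and the microtubule gene Nusap1 fell in all 3 comparisons, and Cit rose in all 3. In experiment 1, 4 of the 10 members fell past an adjusted p of 0.05 (edgeR's quasi-likelihood test, adjusted by Benjamini and Hochberg's method), against 9.78% of all 19752 genes tested, and 1 rose, against 11.1%. In experiment 2 with Sav1 wt, 4 fell, against 10.5% of 17675 genes, and 1 rose, against 12.8%. With Sav1 KO, 5 fell, against 11.6%, and 1 rose, against 11.8%. A count of 1 riser among 10 is near the shares of all genes that rose, so the rise of Cit describes that gene only. The median log2 fold change of the members was -0.38 in experiment 1 (0.02 over all genes), -0.29 in experiment 2 with Sav1 wt (0.0086 over all genes) and -0.41 with Sav1 KO (0.03 over all genes). In experiment 1 the median was -0.20 without LIN9 KO replicate 3. In experiment 2 with Sav1 wt the count of members past the threshold went from 5 to 3 without control replicate 3, which ended the calls of Ect2 and Nusap1. The plot of log2 fold changes by comparison shows Kif23 and Racgap1 on the left and Cit on the right in each of these comparisons.

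**Figure D3:**
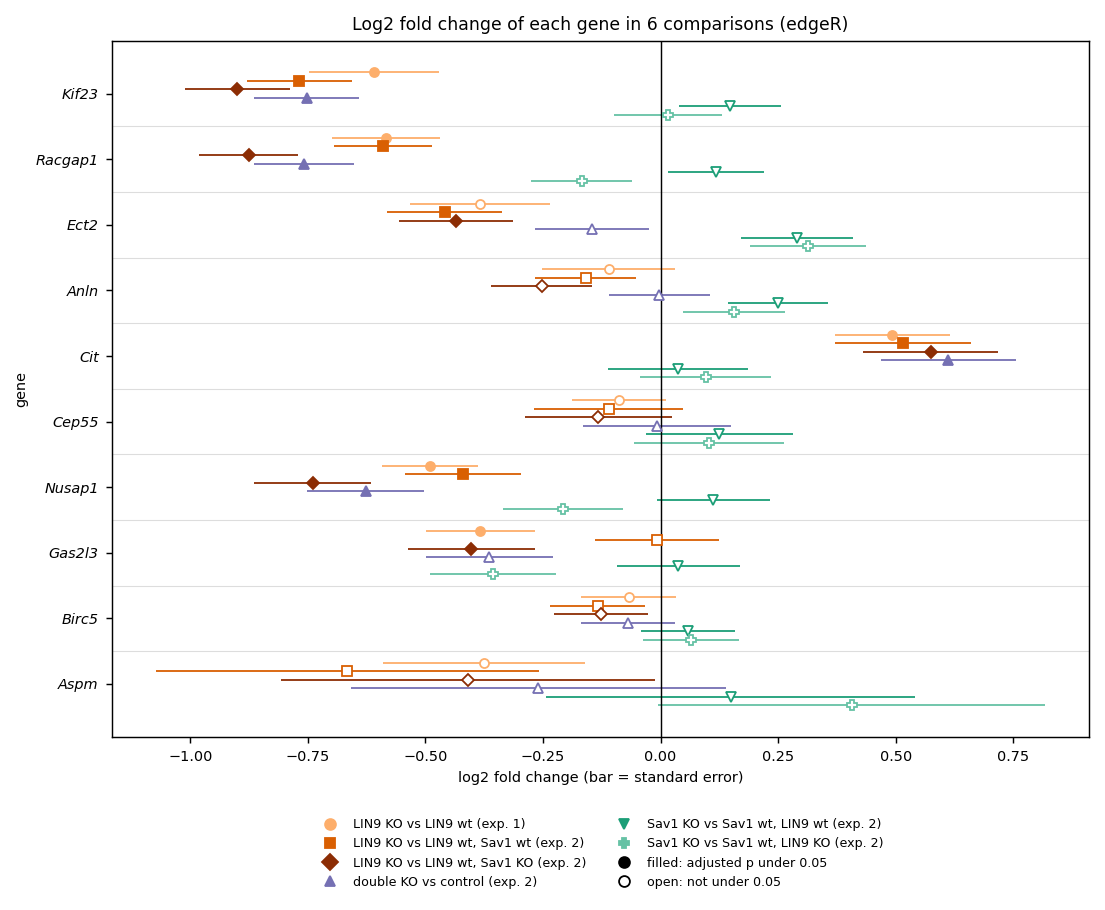
Log2 fold change of each member (horizontal axis) with its SE in 6 comparisons, filled where edgeR's adjusted p was under 0.05. Kif23 lies at -0.61, -0.77 and -0.90 and Cit at 0.49, 0.52 and 0.57 in the 3 comparisons of LIN9 KO with LIN9 wt.

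Kif23 (ENSMUSG00000032254, chromosome 9, 61915905 to 61946774 in mm10), the kinesin of centralspindlin, was measured at 122, 100 and 95.7 CPM in LIN9 wt of experiment 1 and at 72.4, 80.8 and 55.4 CPM in LIN9 KO. In experiment 2 it was measured at 109, 128 and 126 CPM in the control, 62.1, 75.4 and 75.7 CPM in LIN9 KO, 119, 143 and 140 CPM in Sav1 KO and 67.8, 73.6 and 74.0 CPM in the double KO. All libraries without LIN9 were low and all with LIN9 were high, with no overlap in either experiment, while Sav1 KO overlapped the control and the double KO overlapped LIN9 KO. In experiment 1 Kif23 fell from a mean of 106 ± 14.4 to 69.5 ± 12.9 CPM (SD, n = 3), a log2 fold change of -0.61 (SE 0.14, edgeR adjusted p = 0.00622). With Sav1 wt in experiment 2 the log2 fold change was -0.77 (SE 0.11, edgeR adjusted p = 7.7e-06). With Sav1 KO the log2 fold change of Kif23 was -0.90 (SE 0.11, edgeR adjusted p = 6.96e-07).

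Racgap1 (ENSMUSG00000023015, chromosome 15, 99620496 to 99651656 in mm10), the GTPase-activating partner of KIF23, stood at 141, 175 and 139 CPM in LIN9 wt of experiment 1 and at 91.6, 109 and 103 CPM in LIN9 KO. In experiment 2 it stood at 162, 147 and 155 CPM in the control, 113, 103 and 92.5 CPM in LIN9 KO, 171, 173 and 160.3 CPM in Sav1 KO and 88.3, 83.8 and 103 CPM in the double KO. Here too every library without LIN9 lay below every library with it, and the Sav1 KO libraries overlapped the control. Racgap1 fell in experiment 1 with a log2 fold change of -0.58 (SE 0.12, edgeR adjusted p = 0.00205) and in experiment 2 with Sav1 wt with one of -0.59 (SE 0.11, edgeR adjusted p = 1.05e-04). With Sav1 KO the log2 fold change was -0.88 (SE 0.11, edgeR adjusted p = 4.46e-07).

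Ect2 (ENSMUSG00000027699, chromosome 3, 27097222 to 27153878 in mm10), the exchange factor that activates RhoA at the equator, was at 136, 125 and 114 CPM in LIN9 wt of experiment 1 and at 101, 115 and 71.6 CPM in LIN9 KO. In experiment 2 it was at 106, 131 and 136 CPM in the control, 71.3, 101 and 98.4 CPM in LIN9 KO, 137, 157 and 162 CPM in Sav1 KO and 116, 112 and 109 CPM in the double KO. In experiment 1 the LIN9 KO replicate 2 reached the lowest LIN9 wt library, so the groups overlapped, while in experiment 2 neither pair with equal Sav1 genotype did. The log2 fold change in experiment 1 was -0.38 (SE 0.15, edgeR adjusted p = 0.0890), and it passed the threshold without LIN9 KO replicate 2 (-0.54, adjusted p = 0.0128), with every gene of at least 1 count (-0.39, adjusted p = 0.0215) and when the replicate number entered as a block (-0.41, adjusted p = 0.00528), although the replicate numbers of experiment 1 did not all pass the rule for pairing. In experiment 2 Ect2 fell with Sav1 wt (log2 fold change -0.46, SE 0.12, edgeR adjusted p = 0.00633), a call that ended without control replicate 3 (-0.39, adjusted p = 0.0517). It also fell with Sav1 KO (log2 fold change -0.44, SE 0.12, edgeR adjusted p = 0.00842), which ended without Sav1 KO replicate 3 (-0.39, adjusted p = 0.0538). Ect2 is the member lowest in GC, and replicate 1 was the lowest Ect2 library of both the control and LIN9 KO. Of the members next in GC, replicate 1 was lowest in both groups for Nusap1 (41.8%). For Gas2l3 (41.7%) it was lowest in LIN9 KO but highest in the control. A link to GC was not tested.

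Anln (ENSMUSG00000036777, chromosome 9, 22332012 to 22389188 in mm10), the ring scaffold anillin, was at 168, 163 and 129 CPM in LIN9 wt and at 145, 167 and 114 CPM in LIN9 KO of experiment 1. In experiment 2 it was at 145, 158 and 176 CPM in the control, 118, 152 and 159 CPM in LIN9 KO, 185, 185 and 199.9 CPM in Sav1 KO and 156, 162 and 159.7 CPM in the double KO. The first pairs overlapped widely, and only the Sav1 KO libraries stood above all others of their experiment. The log2 fold changes were -0.11 in experiment 1 (0.03 without LIN9 KO replicate 3) and -0.16 in experiment 2 with Sav1 wt, neither past the threshold. With Sav1 KO the log2 fold change of Anln was -0.25 (SE 0.11, edgeR adjusted p = 0.0881), and without replicate 1 of all 4 genotypes it was -0.26 (adjusted p = 0.0237). A fit of the 2 groups alone gave -0.25 (adjusted p = 0.0351).

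Cit (ENSMUSG00000029516, chromosome 5, 115845278 to 116008947 in mm10), which encodes citron kinase of the midbody, was the member that rose. It was at 34.7, 37.6 and 29.5 CPM in LIN9 wt and at 49.4, 52.2 and 41.6 CPM in LIN9 KO of experiment 1. Across experiment 2 it was at 36.2, 38.7 and 40.8 CPM in the control, 44.4, 61.0 and 60.4 CPM in LIN9 KO, 43.4, 38.5 and 36.8 CPM in Sav1 KO and 51.5, 71.5 and 54.1 CPM in the double KO. Every library without LIN9 lay above every library with it in the same experiment. The log2 fold change was 0.49 in experiment 1 (SE 0.12, edgeR adjusted p = 0.00925), and the call ended without LIN9 wt replicate 3 (0.40, adjusted p = 0.0591). In experiment 2 with Sav1 wt it was 0.52 (SE 0.15, edgeR adjusted p = 0.00923), and the call ended without LIN9 KO replicate 2 (0.41, adjusted p = 0.0894) and without control replicate 1 (0.46, adjusted p = 0.0501). With Sav1 KO the log2 fold change of Cit was 0.57 (SE 0.14, edgeR adjusted p = 0.00376), and the call ended without double KO replicate 2 (0.41, adjusted p = 0.0590). Counts per gene do not tell which of the transcripts of Cit rose.

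Cep55 (ENSMUSG00000024989, chromosome 19, 38055011 to 38074423 in mm10), which brings the abscission machinery to the midbody, was at 53.6, 51.3 and 49.9 CPM in LIN9 wt and at 49.9, 50.7 and 45.0 CPM in LIN9 KO of experiment 1. Experiment 2 had 45.2, 58.2 and 57.8 CPM in the control, 36.2, 56.4 and 57.0 CPM in LIN9 KO, 54.9, 59.8 and 61.1 CPM in Sav1 KO and 57.3, 59.9 and 43.0 CPM in the double KO. The groups overlapped or touched in every comparison, and the low values of experiment 2 are single libraries, replicate 1 of the control and of LIN9 KO and replicate 3 of the double KO. The log2 fold changes of Cep55 were -0.09 in experiment 1, -0.11 in experiment 2 with Sav1 wt and -0.13 with Sav1 KO, and none passed the threshold. The value with Sav1 wt was 0.06 without LIN9 KO replicate 1.

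Nusap1 (ENSMUSG00000027306, chromosome 2, 119618298 to 119651244 in mm10), a protein that bundles spindle microtubules near chromatin, was at 107, 94.3 and 109 CPM in LIN9 wt and at 68.1, 75.9 and 76.6 CPM in LIN9 KO of experiment 1. Experiment 2 gave 88.8, 89.8 and 102 CPM in the control, 65.1, 70.5 and 74.6 CPM in LIN9 KO, 88.2, 117 and 98.3 CPM in Sav1 KO and 70.9, 58.5 and 52.3 CPM in the double KO. All libraries without LIN9 were below all with it in the same experiment. Nusap1 fell in experiment 1 (log2 fold change -0.49, SE 0.10, edgeR adjusted p = 0.00286) and with Sav1 KO in experiment 2 (log2 fold change -0.74, SE 0.12, edgeR adjusted p = 5.38e-05). With Sav1 wt it also fell (log2 fold change -0.42, SE 0.12, edgeR adjusted p = 0.0129), which ended without control replicate 3 (-0.35, adjusted p = 0.0860). Of the exonic length of Nusap1, 4.24% lies under Oip5 on the opposite strand.

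Gas2l3 (ENSMUSG00000074802, chromosome 10, 89408823 to 89443967 in mm10), which crosslinks actin and microtubules at the midzone and midbody, was at 69.2, 74.4 and 64.2 CPM in LIN9 wt and at 45.9, 60.7 and 52.8 CPM in LIN9 KO of experiment 1. The values of experiment 2 were 66.8, 62.4 and 63.3 CPM in the control, 56.2, 75.4 and 59.7 CPM in LIN9 KO, 68.7, 62.1 and 66.9 CPM in Sav1 KO and 48.4, 60.6 and 40.6 CPM in the double KO. LIN9 KO lay below LIN9 wt in experiment 1 and the double KO below the Sav1 KO, but LIN9 KO in experiment 2 had 1 library above and the others below the control. In experiment 1 Gas2l3 fell (log2 fold change -0.38, SE 0.12, edgeR adjusted p = 0.0273). That call ended without LIN9 KO replicate 1 (-0.28, adjusted p = 0.140), LIN9 wt replicate 1 (-0.38, adjusted p = 0.0887) or LIN9 wt replicate 2 (-0.33, adjusted p = 0.119). With Sav1 wt in experiment 2 the log2 fold change was -0.0077 (SE 0.13, edgeR adjusted p = 0.988), and it was 0.06 without LIN9 KO replicate 1.

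With Sav1 KO the log2 fold change of Gas2l3 was -0.40 (SE 0.13, edgeR adjusted p = 0.0289). This call ended with DESeq2 (-0.40, adjusted p = 0.0792) and without double KO replicate 1 (-0.38, adjusted p = 0.0732), double KO replicate 3 (-0.27, adjusted p = 0.180), Sav1 KO replicate 1 (-0.37, adjusted p = 0.107) or Sav1 KO replicate 3 (-0.39, adjusted p = 0.0845). Without replicate 1 of all 4 genotypes it was -0.35 (adjusted p = 0.0757). Among the called members Gas2l3 was thus the one that most often lost its call when 1 library was left out.

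Birc5 (ENSMUSG00000017716, chromosome 11, 117849251 to 117855743 in mm10), the survivin subunit of the chromosomal passenger complex, was at 95.9, 102 and 98.8 CPM in LIN9 wt and at 87.2, 91.8 and 104 CPM in LIN9 KO of experiment 1. Its levels in experiment 2 were 89.1, 85.3 and 96.8 CPM in the control, 83.8, 81.0 and 82.4 CPM in LIN9 KO, 91.9, 97.3 and 93.1 CPM in Sav1 KO and 87.9, 83.1 and 87.5 CPM in the double KO. Birc5 varied little between libraries, and in experiment 2 LIN9 KO lay just below the control, and the double KO just below the Sav1 KO, without overlap. Its log2 fold changes of -0.07 in experiment 1, -0.13 with Sav1 wt and -0.13 with Sav1 KO did not pass the threshold (edgeR adjusted p = 0.705, 0.385 and 0.401).

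Aspm (ENSMUSG00000033952, chromosome 1, 139454772 to 139494091 in mm10), which focuses microtubules at the spindle poles, was at 70.2, 46.6 and 57.5 CPM in LIN9 wt and at 47.3, 55.4 and 31.8 CPM in LIN9 KO of experiment 1. Across experiment 2 it was at 56.8, 122 and 128 CPM in the control, 31.2, 79.1 and 83.5 CPM in LIN9 KO, 90.2, 133 and 117 CPM in Sav1 KO and 79.4, 97.6 and 79.0 CPM in the double KO. Replicate 1 was by far the lowest library of the control and of LIN9 KO, and the groups overlapped in every comparison, although each LIN9 KO library lay below the control library of its number. The ratio of replicate 1 to the mean of the other replicates was 0.455 in the control and 0.384 in LIN9 KO, against 0.722 in Sav1 KO and 0.90 in the double KO. With all libraries the log2 fold change of Aspm was -0.38 in experiment 1 (SE 0.22, edgeR adjusted p = 0.283), -0.67 in experiment 2 with Sav1 wt (SE 0.41, edgeR adjusted p = 0.307) and -0.41 with Sav1 KO (SE 0.40, edgeR adjusted p = 0.532). With the replicate number entered as a block the value with Sav1 wt was -0.67 (adjusted p = 0.0989) and that with Sav1 KO -0.39, neither past the threshold. Without replicate 1 of all 4 genotypes, an alternative chosen after these values were seen, it was -0.63 with Sav1 wt (adjusted p = 1.63e-05) and -0.50 with Sav1 KO (adjusted p = 3.23e-04). A fit of the Sav1 KO and double KO libraries alone gave -0.41 (adjusted p = 0.00937). The same ratio was low in the control and in LIN9 KO for some other listed genes too, so the drop is not particular to Aspm. Other listed mitotic genes did not drop, among them Bub1b (1.002 and 1.022), Cdk1 (1.041 and 1.216) and Ccna2 (1.061 and 1.135). Among the low genes the ratio was 0.166 and 0.316 for Cenpf, 0.247 and 0.232 for Cenpe, 0.241 and 0.157 for Kif20b and 0.333 and 0.418 for Mki67. In Sav1 KO the ratio of these genes was low as well, with 0.432, 0.406, 0.454 and 0.562 in the same order. In the double KO it was 0.869, 0.897, 1.137 and 0.796. By GC, Aspm (44.3%) belongs to genes with a median deviation of -0.024 in the control library and -0.015 in the LIN9 KO library, and by length to the fifth with the longest transcripts, where it was -0.066 and -0.054. The reason for the low values was not tested.

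The heatmap of all 18 libraries shows these patterns side by side. Kif23, Racgap1 and Nusap1 carry the same colour change from LIN9 wt to LIN9 KO in both experiments, Cit the opposite one, and Birc5 and Cep55 hardly any. Replicate 1 of the control and of LIN9 KO in experiment 2 stands out in Aspm, Ect2 and Cep55.

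**Figure D4:**
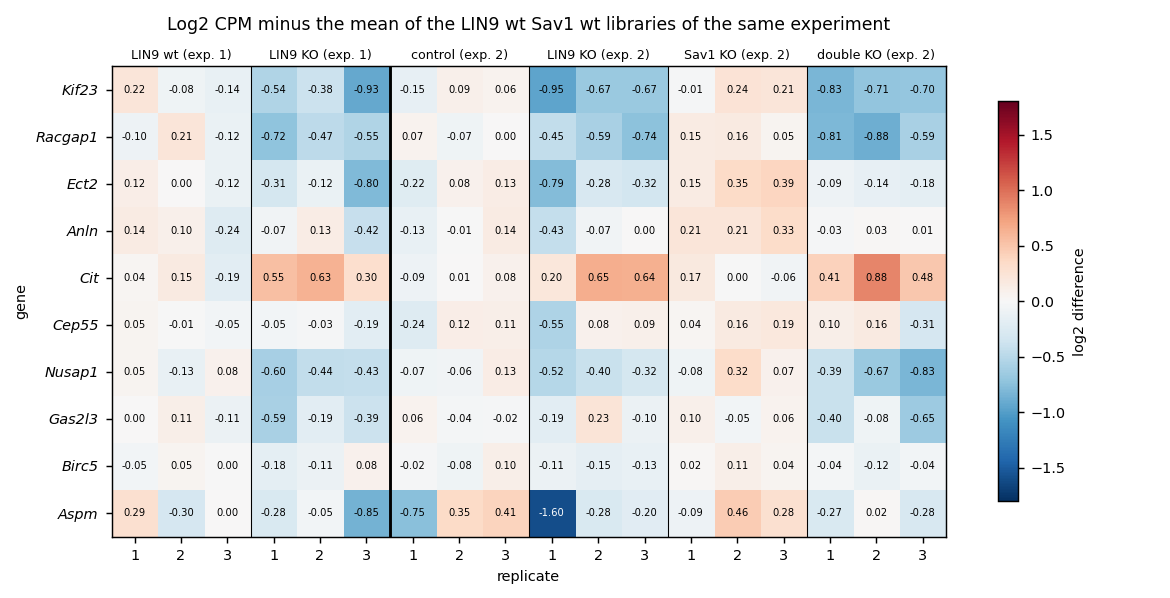
Log2 CPM of each member (vertical) in each of the 18 libraries (horizontal), as the difference from the mean of the LIN9 wt libraries of experiment 1 or of the control of experiment 2. Kif23, Racgap1 and Nusap1 are below 0 in all 9 libraries of LIN9 KO and double KO, and Cit is above 0 in all 9.

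Sav1 KO was compared with Sav1 wt, first with LIN9 present and then without it, to ask what loss of the Hippo scaffold does to the members and whether that needs LIN9. With LIN9 present, all 10 members had a log2 fold change above 0 and none passed the threshold. By edgeR's quasi-likelihood test 0 of 10 members were called, against 0.017% of 17675 genes, and 2 had an unadjusted p under 0.05, against 3.92%. DESeq2 called 0 as well, with 1 at an unadjusted p under 0.05. The members' median was 0.12, against 8.05e-05 over all genes. Ect2 had the largest value, 0.29 (SE 0.12, edgeR adjusted p = 0.999), followed by Anln with 0.25 (SE 0.11, edgeR adjusted p = 0.999), and these are the members with an unadjusted p under 0.05, of which there were 0 by edgeR without control replicate 1 or Sav1 KO replicate 3, with 0 called. In both genes every Sav1 KO library lay above every control library, though the share of all genes separated in this way is not given here. The other 8 members lay between 0.04 and 0.15. The number of members above 0 was 8 without control replicate 1 or without Sav1 KO replicate 1, and Aspm was then at -0.14 without that control library.

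Without LIN9, the double KO was compared with LIN9 KO. By edgeR 0 of 10 members were called, against 0.0113% of all genes, and 2 had an unadjusted p under 0.05, against 11.8%. DESeq2 gave no adjusted p for any of the 10 and an unadjusted p under 0.05 for 2. Over all genes edgeR called 2, and 0 with filterByExpr or with the 2 groups alone. That number was 77 with DESeq2, 84 with the replicate number as a block and 309 with every gene of at least 1 count. By edgeR, 4 members had an unadjusted p under 0.05 without LIN9 KO replicate 3, where 356 of all genes were called, 3 without double KO replicate 1, and 1 without LIN9 KO replicate 1 or 2. The median was 0.08, against 9.3e-04 over all genes, with 7 members above 0. Without LIN9 KO replicate 1 the median was -0.05, with 4 members above 0. Ect2 was higher by 0.31 on the log2 scale (SE 0.12, edgeR adjusted p = 0.295), and Gas2l3 had a log2 fold change of -0.36 (SE 0.13, edgeR adjusted p = 0.271). All 3 double KO libraries of Ect2 lay above the LIN9 KO libraries, whereas those of Gas2l3 overlapped with them. Aspm had the largest value, 0.41, with an SE of 0.41.

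The interaction asks whether the Sav1 effect depends on LIN9. No member was called by edgeR's quasi-likelihood test, 0 of 10 against 0% of all genes, and 1 had an unadjusted p under 0.05, against 6.54%. DESeq2 called 0 at the adjusted and 0 at the unadjusted threshold. By edgeR the latter count was 2 without LIN9 KO replicate 3 or replicate 1 of all 4 genotypes, where 64 and 20 of all genes were called. It was 0 without TMM, with filterByExpr, and when 1 of these libraries was left out: control replicate 1, control replicate 2, LIN9 KO replicate 2, Sav1 KO replicate 2 or Sav1 KO replicate 3. With all libraries that 1 member was Gas2l3, with an interaction of -0.39 (SE 0.19, edgeR adjusted p = 0.760). The interaction was -0.32 for Nusap1, -0.29 for Racgap1, -0.13 for Kif23, -0.09 for Anln and -0.02 for Cep55, and above 0 for the other 4 members, with 0.26 for Aspm (SE 0.57), 0.06 for Cit, 0.02 for Ect2 and 0.0072 for Birc5. The number of members above 0 was 1 without LIN9 KO replicate 1. It was 2 without control replicate 3 or without replicate 1 of all 4 genotypes. The members' median was -0.06, against -9.19e-04 over all genes, and it was 0.0016 without LIN9 KO replicate 2 and 0.0096 without control replicate 1. The difference between the LIN9 effects of experiments 1 and 2 was not tested.

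The double KO against the control shows both losses together, and it shares its libraries with the comparisons above. Kif23, Racgap1 and Nusap1 were low and Cit was high, at the CPM values given for each gene. By edgeR's quasi-likelihood test 3 of 10 members fell, against 9.96% of all genes, and 1 rose, near the 10.7% of all genes that rose. Racgap1 had a log2 fold change of -0.76 (SE 0.11, edgeR adjusted p = 5.52e-06), Kif23 of -0.75 (SE 0.11, edgeR adjusted p = 1.4e-05) and Nusap1 of -0.63 (SE 0.13, edgeR adjusted p = 4.97e-04). Cit rose by 0.61 (SE 0.14, edgeR adjusted p = 0.00261). The double KO and control libraries did not overlap in these 4 genes or in Gas2l3. The share of all genes without overlap is not given here, so this separation is description only. Gas2l3, with a log2 fold change of -0.36 (SE 0.13, edgeR adjusted p = 0.0535), passed the threshold without double KO replicate 2 (-0.53, adjusted p = 0.0126), with every gene of at least 1 count (-0.37, adjusted p = 0.0274) and with the replicate number entered as a block (-0.37, adjusted p = 0.0355).

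Ect2, which fell in LIN9 KO against the control and did not pass in Sav1 KO, had a log2 fold change of -0.15 in the double KO against the control, and its libraries overlapped with the control. Without replicate 1 of all 4 genotypes it was -0.28 (adjusted p = 0.0313), and Aspm, at -0.26 with all libraries, was -0.51 (adjusted p = 3.93e-04). Anln was at -0.0031, Cep55 at -0.0076 and Birc5 at -0.07. The members' median was -0.20, against 0.03 over all genes, and -0.07 without control replicate 3.

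Replicate numbers were checked for pairing by correlating libraries across genes, which are not independent replicates. Same-numbered libraries of the control, LIN9 KO and Sav1 KO correlated at 0.102 to 0.637 in their deviations from the group mean, and 5 of 6 libraries in each such pair of groups matched best with their own number. Replicates 2 and 3 were less clear. Control replicate 2 correlated at 0.290 with LIN9 KO replicate 3 and at 0.257 with LIN9 KO replicate 2. Deviations are centred within a group, so a replicate 1 apart in both groups also ties the other libraries across numbers. Pairing of replicates 2 and 3 is thus not shown. The double KO showed no such pairing (-0.104 to 0.159), with 0 to 2 of 6 libraries matching best with their own number. In experiment 1 the correlations were 0.0576 to 0.285 and 4 of 6 libraries matched best with their own number, so that not all pairs passed 0.1 and pairing was left undecided. With the replicate number as a block, 5 members were called in LIN9 KO with Sav1 wt and 6 with Sav1 KO, as without it. The block took the count from 5 to 6 in experiment 1 and from 4 to 5 in the double KO against the control. Of 17675 genes it called 4370 with Sav1 wt, 4488 with Sav1 KO and 4022 in the double KO. Without the block these were 4103, 4132 and 3647. In experiment 1 the block called 5001 of 19752 genes, against 4131 without it.

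The wider cytokinesis machinery was read from lists that hold none of the members. Over all genes, 9.78% fell in experiment 1, 10.5% in experiment 2 with Sav1 wt, 11.6% with Sav1 KO and 9.96% in the double KO against the control, and 11.1%, 12.8%, 11.8% and 10.7% rose, in the same order. Of 8 other central spindle genes tested, 3 fell in experiment 1 (median -0.20), 4 in experiment 2 with Sav1 wt (median -0.39), 6 with Sav1 KO (median -0.50) and 5 in the double KO against the control (median -0.38), and the rest did not pass. For the double KO the count was 3 without control replicate 2. Plk1, the kinase that primes ECT2 recruitment, fell with log2 fold changes of -0.72, -0.64, -1.20 and -1.05 in these comparisons. Cdca8, which encodes the passenger subunit borealin, fell with -0.50, -0.66, -0.79 and -0.75. Prc1, the antiparallel bundler of the midzone, had 0 counts in every library and all of its exonic length (100%) lies under other gene bodies, so it could not be tested.

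In the contractile ring list, 3 of 12 tested rose and 1 fell in experiment 1 (median 0.20), with Sav1 wt in experiment 2 4 rose and 1 fell (median 0.07), with Sav1 KO 1 rose and 1 fell (median 0.15), and in the double KO 1 rose and 1 fell (median 0.16). A count of 1 of 12 is near the shares over all genes, 9.78% to 11.6% lower and 10.7% to 12.8% higher. Sept6, a septin, was the gene that fell each time, with log2 fold changes of -1.09, -1.08, -0.91 and -0.97. Diaph3, a formin that nucleates ring actin, rose with 0.48, 0.53, 0.67 and 0.78. The Diaph3 call ended in experiment 1 without LIN9 KO replicate 2 (0.35, adjusted p = 0.0517) or LIN9 wt replicate 3 (0.40, adjusted p = 0.0665). With Sav1 wt it ended without LIN9 KO replicate 3 (0.36, adjusted p = 0.0702), control replicate 1 (0.43, adjusted p = 0.0592) or control replicate 2 (0.47, adjusted p = 0.0556). Myh10, a nonmuscle myosin heavy chain, rose in experiment 1 (0.47, edgeR adjusted p = 0.0339), with a lost call without LIN9 KO replicate 1 or 2 or LIN9 wt replicate 1 or 3 (adjusted p = 0.0822, 0.104, 0.121 and 0.164). Sept9 rose with Sav1 wt (0.38, edgeR adjusted p = 0.0271), with a lost call without LIN9 KO replicate 1 or 2 or control replicate 2 or 3 (adjusted p = 0.142, 0.118, 0.168 and 0.106) or with DESeq2 (adjusted p = 0.0644).

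The ring count moved with single libraries. It was 4 in experiment 1, and 2 without LIN9 KO replicate 2 or LIN9 wt replicate 1 and 1 without LIN9 wt replicate 3. With Sav1 wt it was 5, and 2 without LIN9 KO replicate 1, 3 without LIN9 KO replicate 2 or control replicate 1 or 3, and 1 without control replicate 2. In the double KO it was 2, and 4 without double KO replicate 1. Without replicate 1 of all 4 genotypes it was 5 in the double KO and 5 with Sav1 KO, against 2 in each with all libraries. Myl12a and Myl12b were not tested, with 0 counts in every library.

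Abscission genes of the ESCRT machinery mostly did not pass the test. Of 14 tested, 2 fell in experiment 1 (median -0.05), 2 fell and 1 rose with Sav1 wt (median -0.03), 2 fell with Sav1 KO (median -0.14) and 3 fell in the double KO (median -0.17). Counts of 1 or 2 of 14 are near the shares over all genes, 9.78% to 11.6% lower and 12.8% higher with Sav1 wt. Chmp6, an ESCRT-III subunit, fell in all 4 comparisons with log2 fold changes of -0.39, -0.59, -0.50 and -0.63. Each Chmp6 call ended without some single libraries. In experiment 1 these were LIN9 wt replicates 1 and 2 (adjusted p = 0.0523 and 0.0708), with Sav1 wt LIN9 KO replicate 2 and control replicate 1 (adjusted p = 0.0855 and 0.0521), with Sav1 KO double KO replicate 2 and Sav1 KO replicates 1 and 3 (adjusted p = 0.196, 0.127 and 0.120), and in the double KO double KO replicate 2 and control replicate 1 (adjusted p = 0.0775 and 0.0568). The Chmp6 call with Sav1 KO also ended with DESeq2 (adjusted p = 0.0859). Chmp4c fell in experiment 1 (-0.76, edgeR adjusted p = 0.00183). Vps4a, the ATPase that recycles ESCRT-III, fell with Sav1 wt (-0.43, edgeR adjusted p = 0.0131, and 0.0595 without control replicate 3) and in the double KO (-0.55, edgeR adjusted p = 0.00223). Chmp2b rose with Sav1 wt (0.41, edgeR adjusted p = 0.0200), a call that ended without LIN9 KO replicate 1 or 2 or control replicate 1 or 2 (adjusted p = 0.0599, 0.0653, 0.0839 and 0.0800), without replicate 1 of all 4 genotypes (adjusted p = 0.0588) or with DESeq2 (adjusted p = 0.0635). Chmp2a fell with Sav1 KO (-0.45, edgeR adjusted p = 0.0150, 0.0523 without Sav1 KO replicate 3 and 0.0504 with DESeq2).

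The abscission count also moved with single libraries. It was 1 without LIN9 wt replicate 1 or 2 in experiment 1. With Sav1 wt it was 1 without LIN9 KO replicate 2 or control replicate 1 and 5 without LIN9 KO replicate 3. With Sav1 KO it was 1 without double KO replicate 2 or Sav1 KO replicate 1 and 0 without Sav1 KO replicate 3, DESeq2 also called 0, and it was 4 without replicate 1 of all 4 genotypes. In the double KO it was 1 without control replicate 1. Chmp1a and Chmp1b had 0 counts in every library.

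Mitotic genes that act mainly before cytokinesis were read next. Of 17 tested, 7 fell and 1 rose in experiment 1 (median -0.23), 6 fell with Sav1 wt (median -0.28), 9 fell with Sav1 KO (median -0.49), and 8 fell and 1 rose in the double KO (median -0.27). The count in the double KO was 5 without double KO replicate 2. Without replicate 1 of all 4 genotypes the counts were 12 with Sav1 wt, 12 with Sav1 KO and 13 in the double KO. Ccnb1, the cyclin of mitotic entry, fell with log2 fold changes of -0.92, -0.95, -1.09 and -1.16, and Ccna2, cyclin A, with -0.82, -0.90, -1.13 and -1.06. Ttk, a checkpoint kinase, rose in experiment 1 (0.64, edgeR adjusted p = 0.0102) and in the double KO (0.86, edgeR adjusted p = 0.0221). Its call ended in experiment 1 without LIN9 wt replicate 2 or 3 (adjusted p = 0.0558 and 0.0555), and in the double KO without double KO replicate 1 or 2 or control replicate 1 (adjusted p = 0.0800, 0.0862 and 0.0760).

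S phase genes, which act earlier in the cycle, fell in part. Of 16 tested, 3 fell in experiment 1 (median -0.0097), 6 with Sav1 wt (median -0.21), 9 with Sav1 KO (median -0.40) and 7 in the double KO (median -0.32). The count was 1 in experiment 1 without LIN9 wt replicate 2, and with Sav1 wt it was 10 without LIN9 KO replicate 1 and 3 without LIN9 KO replicate 2 or 3. Rrm2, the small subunit of ribonucleotide reductase, fell with log2 fold changes of -0.67, -0.89, -0.93 and -0.78. Ccne1 fell in experiment 1 (-0.51, edgeR adjusted p = 0.0150, and 0.0736 without LIN9 wt replicate 2) and with Sav1 wt (-0.94, edgeR adjusted p = 2.57e-04). Mcm2, a subunit of the replicative helicase, fell with Sav1 KO (-0.81) and in the double KO (-0.57). Cdt1 and Gins2 had 0 counts in every library.

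Among MuvB subunits and partners, 1 of 7 fell in experiment 1 (median 0.05), 1 with Sav1 wt (median -0.13), 2 with Sav1 KO (median -0.13) and 2 in the double KO (median -0.24), and Foxm1 and Mybl2 are also in the mitotic list. A count of 1 of 7 is near the shares over all genes, 9.78% in experiment 1 and 10.5% with Sav1 wt. With Sav1 wt the gene was Lin9 itself, and the count was 2 without LIN9 KO replicate 1, control replicate 1 or replicate 1 of all 4 genotypes, with every gene of at least 1 count, with filterByExpr and with the replicate block. Foxm1, a transcription factor of G2 genes, fell in experiment 1 (-0.30, edgeR adjusted p = 0.0410), a call that ended without any 1 of the 6 libraries, where the adjusted p ran from 0.0569 to 0.136, and with DESeq2 (adjusted p = 0.0701). The list's count was then 0 except without LIN9 KO replicate 3, and it was 2 with the replicate number entered as a block. It fell with Sav1 KO (-0.53, edgeR adjusted p = 0.00147) and in the double KO (-0.35, edgeR adjusted p = 0.0370). In the double KO the Foxm1 call ended without double KO replicate 1 or 2 or control replicate 2 or 3 (adjusted p = 0.0909, 0.139, 0.0923 and 0.0877) or with DESeq2 (adjusted p = 0.0878), each of which left a list count of 1. Rbbp4, a histone-binding subunit, fell with Sav1 KO (-0.40) and in the double KO (-0.50).

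The plot of the lists beside the members shows medians below 0 in all 3 panels for the members and for the central spindle, mitotic, abscission and S phase lists. The S phase median, -0.0097 in experiment 1, was -0.40 with Sav1 KO, beside -0.41 for the members, and the ring medians were above 0. For Sav1 KO with LIN9 present, edgeR and DESeq2 called 0 genes in each of these lists, and 1 mitotic gene had an unadjusted p under 0.05, with list medians between -0.06 and 0.17. Without LIN9, edgeR called 0 in each list with 1 or 2 genes per list at an unadjusted p under 0.05, and medians lay between -0.12 and 0.17. There the count was 1 for central spindle genes without LIN9 KO replicate 3 and 3 for mitotic genes without replicate 1 of all 4 genotypes, and DESeq2 called 0 in the ring, mitotic and S phase lists and gave no full set of adjusted p for the others. In the interaction both tools called 0 in each list, and 4 mitotic genes, 2 each of the central spindle, S phase and MuvB lists and 0 of the others had an unadjusted p under 0.05 by edgeR.

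**Figure D5:**
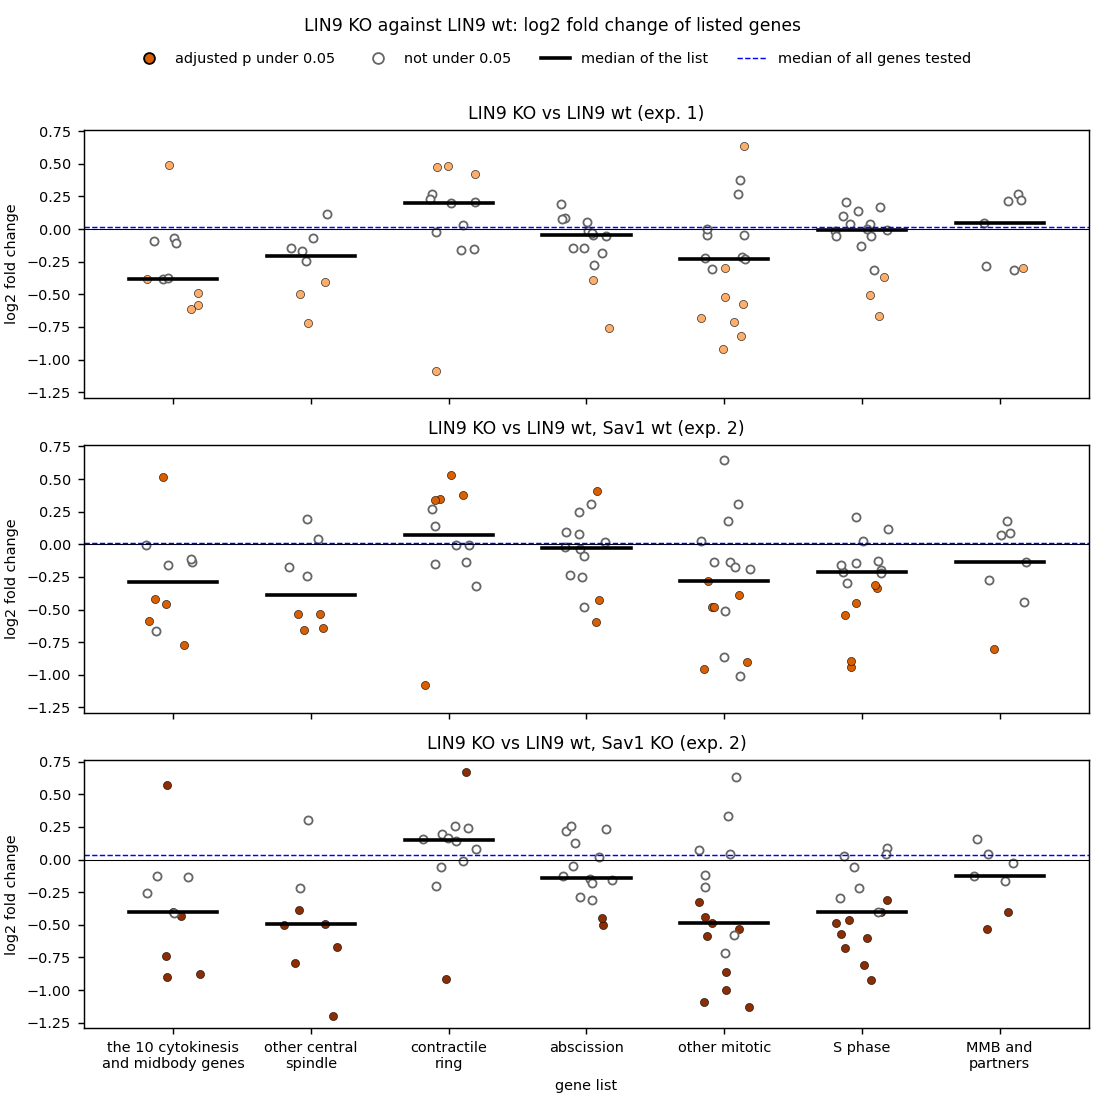
Log2 fold change of each tested gene by list, in 3 panels for the comparisons of LIN9 KO with LIN9 wt, filled where edgeR's adjusted p was under 0.05, with a black bar at the list median and a dashed line at the median of all genes. In the comparison of LIN9 KO with LIN9 wt at Sav1 KO, the median was -0.41 for the members, -0.50 for other central spindle genes, -0.49 for other mitotic genes, -0.40 for S phase genes, -0.14 for abscission genes, -0.13 for MuvB subunits and partners and 0.15 for contractile ring genes.

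Genes outside the members whose profile over the libraries came nearest to the members' mean were found by the root mean square difference of centred log2 CPM. In experiment 1, over 6 libraries and 12233 genes, these were Tnik (0.0302), Aifm1 (0.0306), Xpr1 (0.0319), Cisd2 (0.0399) and Gm8281 (0.0402). In experiment 2, over 12 libraries and 12387 genes, they were Otud4 (0.0441), Rprd1a (0.0739), Mut (0.0801), Cul5 (0.0821) and Ptcd3 (0.0842). No gene is named for both experiments. The distance of each member from the members' mean ran from 0.104 (Cep55) to 0.387 (Cit) in experiment 1 and from 0.0975 (Anln) to 0.444 (Cit) in experiment 2. The named genes were picked as the nearest of all candidates, so their smaller distance follows from that choice. The mean also averages members that fell with Cit, which rose, so nearness to it is not likeness to any member.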

How the data were processed

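The authors deposited raw counts per Ensembl gene, one table per experiment, and per the labels made them from polyA libraries (NEBNext Ultra II, NextSeq) aligned to mm10 with TopHat2 2.1.0, down-sampled to the smallest library and counted with summarizeOverlaps. Neither the overlap mode nor the strandedness is stated. From the deposited counts, edgeR 4.0.16 (R 4.3.3) fitted each experiment with TMM normalisation and robust quasi-likelihood tests on genes with a mean count above 1, 19752 and 17675 genes, adjusted by Benjamini-Hochberg at 0.05. The 12 libraries of experiment 2 were fitted together. CPM used the TMM library sizes, and log2 CPM a prior count of 2. DESeq2 1.42.0, no TMM, other filters, the replicate number as a block, the 2 groups alone and leaving out each library were the alternatives, with replicate 1 of all 4 genotypes left out as one chosen after seeing the data. Gene positions are from GENCODE M21 (mm10), promoters from RefSeq. Of other lists, up to 2 genes per direction with the largest change past the threshold are named, and the 5 genes nearest to the members' mean at 5 CPM or more. Identifiers found more than once were kept once (4 per experiment). The rule for pairing was that same-numbered libraries of 2 groups correlated above 0.1 in all 3 pairs. The scripts were tested on simulated data with a fixed size of change and a fixed spread. That test does not bear on calls of smaller or more variable changes. The members and lists were chosen with earlier results of these data known. The 4 ChIP samples were not used.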

Additional observations from a re-analysis of the deposited data

How the results depend on the processing

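The directions and calls were recomputed with DESeq2, without TMM, with every gene of at least 1 count, with filterByExpr, with a replicate block, with the 2 groups alone, and without each library. For the members' counts and medians, 79 values from other settings and 106 from left-out libraries stayed within the scripts' margins, which are a fixed factor for counts and the replicate SD of the members' mean for medians, so that medians near 0 could change sign. Beyond the margins, members past the threshold with LIN9 KO and Sav1 wt ranged from 3, without control replicate 3, to 5, with 6 without replicate 1 of all 4 genotypes, and the members' median in experiment 1 from -0.50 to -0.20, the latter without LIN9 KO replicate 3. Within them, the median changed sign for the double KO against LIN9 KO (-0.05 without LIN9 KO replicate 1) and for the interaction (0.0016 without LIN9 KO replicate 2, 0.0096 without control replicate 1), and the count with Sav1 KO ranged from 4 to 8. The causes were not tested. DESeq2 gave no adjusted p for the members in the double KO against LIN9 KO.

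Some log2 fold changes changed sign, not all of them near 0, since the Aspm interaction was 0.26 with all libraries. In the double KO against the control, Anln was 0.0058 with filterByExpr and 0.0017 with the replicate block, and Cep55 0.0016 and 2.71e-04. With 1 library left out, this comparison ranged from -0.066 to 0.071 for Anln and -0.12 to 0.12 for Cep55. LIN9 KO against LIN9 wt ranged in experiment 1 from -0.24 to 0.026 for Anln, with Sav1 wt from -0.24 to 0.064 for Cep55 and -0.18 to 0.061 for Gas2l3, and with Sav1 KO from -0.22 to 2.55e-05 for Cep55, -0.33 to 0.019 for Lin9 and -0.028 to 0.097 for Sav1. Sav1 KO against Sav1 wt ranged with LIN9 from -0.14 to 0.34 for Aspm, -0.045 to 0.086 for Cit, -0.0040 to 0.071 for Gas2l3, -0.27 to 0.074 for Lin9 and -0.014 to 0.19 for Nusap1, and without it from -0.080 to 0.23 for Cep55, -0.065 to 0.19 for Cit and -0.068 to 0.081 for Kif23. The interaction ranged from -0.068 to 0.56 for Aspm, -0.045 to 0.081 for Birc5, -0.20 to 0.11 for Cep55, -0.10 to 0.17 for Cit and -0.11 to 0.14 for Ect2. Without replicate 1 of all 4 genotypes, chosen after seeing the data, Gas2l3 was 0.11 for LIN9 KO with Sav1 wt. The same setting gave -7.81e-04 for Aspm, -0.077 for Cit and 0.15 for Lin9 for Sav1 KO with LIN9, -0.14 for Cep55 and -0.034 for Kif23 without LIN9, and -0.0017 for Birc5 and -0.11 for Ect2 in the interaction. The causes of these changes were not tested.

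Among single genes and lists, other settings gave 968 values on the same side, 10 weaker, 10 stronger and 4 of the other sign, and left-out libraries 1150, 91, 19 and 49. With 3 libraries a group, and 1 count worth up to 0.373 CPM in experiment 2, a difference that missed the threshold is not shown to be absent. Counts over whole tissue do not separate cell types, whose markers moved with LIN9, and do not resolve transcripts. Neither the labels nor the paper state whether the replicates of a group are separate embryos. A legend of the paper speaks of 2 biological replicates of LIN9 KO and LIN9 wt, each in triplicate.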
